A study of Mus musculus with 6 samples.

Results

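The mouse miRNAs miR-297, miR-466, miR-467 and miR-669 form a large group of near-repeat hairpins, most of them within an intron of Sfmbt2. Their rows were taken from the count tables by number alone, with any letter, copy number and arm. This gave 80 of 1906 rows, of which 6 are miR-297, 31 miR-466, 13 miR-467 and 30 miR-669. The rule uses no measured value. The libraries came from primary cultures of oligodendrocytes, which make the myelin of brain and spinal cord, prepared from C57BL/6N mice at embryonic day 14. Cultures were kept in Sato medium that held 1% horse serum, then washed and kept for 24 h in serum-free Sato with B27, a supplement for neural cultures. In the EVs group (3 libraries, 5 to 6 days in vitro) the material was the extracellular vesicle pellet of a 100000 g spin of the medium, which can also hold particles other than vesicles. In the Cells group (3 libraries, 6 days in vitro) it was the whole cells. No library of medium alone enters the comparison, so it compares how frequent reads were in pellet and cells and says nothing of their source. Nothing in the labels tells separate cultures from repeat libraries of 1 culture. The spread behind each p-value is that between these libraries and may be technical.

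A miRNA hairpin is cut into an arm from its 5′ side (5p) and an arm from its 3′ side (3p), and the arm that is kept pairs with target mRNAs mainly through its seed, bases 2 to 8. Sfmbt2 encodes a Polycomb group protein. The gene is imprinted, with expression from the paternal allele, and it and its intronic miRNAs are best known from the placenta and the early embryo. The hairpins arose by local duplication in rodents, and their sequences are rich in runs of U and G or of A and C.

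Of the 82 hairpin genes with these numbers in the RefSeq gene table of GRCm38.p6, 72 lie inside Sfmbt2 on chromosome 2. All 72 fall in intron 10 of the GENCODE coding transcript with the most exons, 23, and on the same strand as the gene. The order miR-467, miR-466, miR-669 occurs 12 times along the intron. The other 10 hairpin genes lie elsewhere: 5 of miR-466, 3 of miR-467, 1 of miR-669 and 1 of miR-297. The label of an intronic cluster therefore holds for 66 of the 80 rows. Of the remaining rows, 9 come from hairpins outside Sfmbt2 and 5 (miR-297a and miR-466f rows) have copies both inside and outside. The files were made with another build (mm9), so the gene table serves here for neighbourhood only. By reads the label fits more closely, since the 66 rows inside held 1005 of the 1028 reads of the group, or 97.8%.

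The mature sequences of 8 rows were found in RefSeq (GRCm38.p6), and all 8 come from hairpins outside Sfmbt2. They are shown for the repeats of U and G or A and C described above, and the difference between the groups does not rest on them. The seed is in capitals.
miR-466q: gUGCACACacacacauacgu
miR-466i-3p: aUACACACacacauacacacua
miR-467f: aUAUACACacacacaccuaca
miR-467g: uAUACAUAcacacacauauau
miR-466j: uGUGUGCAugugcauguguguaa
miR-466k: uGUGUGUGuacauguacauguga
miR-669n: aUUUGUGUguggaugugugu
miR-467h: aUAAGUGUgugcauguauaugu
Each of the 8 has a seed of its own, so rows that share a number need not share a seed. In the RefSeq table of 1679 mature sequences, 7 of the 8 seeds occur in no other miRNA, and that of miR-467h is shared with miR-668-5p. That table holds no sequence for the other 72 rows of the cluster, so it cannot show whether they share these seeds. The motif ACACACA occurs in 4 of the 8 (miR-466q, miR-466i-3p, miR-467f, miR-467g) and UGUGUGU in 3 (miR-466j, miR-466k, miR-669n). These motifs of 7 bases are each other's reverse complement, so a search for both covers both strands, and no 1 sequence held both. Either motif is present in 16 of the 1679 sequences, or 0.953%, and the 72 rows without a sequence are in neither number. Bases A and C make up 86.4% of miR-466i-3p, and G and U make up 90% of miR-669n. Among these 8 rows reads were found for miR-466q (15 reads) and miR-467h (1 read), and the other 6 were at 0 in all libraries. The sequences of miR-669c-5p, miR-669a-5p and miR-467e-5p, which the results below turn on, are named only.

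The cluster was a minor part of both kinds of library and a smaller part of the vesicle pellet than of the cells. All 80 rows together held 147, 98 and 340 reads in EVs replicates 1, 2 and 3, and 157, 94 and 192 reads in Cells replicates 1, 2 and 3. Library totals were 313766 to 689475 reads in EVs and 126910 to 202358 in Cells. As CPM, the reads scaled to a common library total, the sum was 341.1 (95% exact binomial interval 288 to 401), 312 (254 to 380.6) and 493 (442 to 548) in EVs. In Cells it was 1005 (854 to 1175), 741 (599 to 906) and 949 (819 to 1093). Each EV library lay below each cell library. The means were 382.2 ± 97.2 CPM in EVs and 898 ± 139 CPM in Cells (SD, n = 3 each). The fitted log2 fold change of the sum, EVs over Cells, was -1.74 (SE 0.26) after trimmed-mean (TMM) scaling. It was -1.23 with library size only, a scaling that moves the median of all 336 tested rows from 0.06 to 0.54. No p-value is given for sums, since the members were chosen with earlier results known. The intervals and the limits of a count of 0 cover counting error only.

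**Figure D1:**
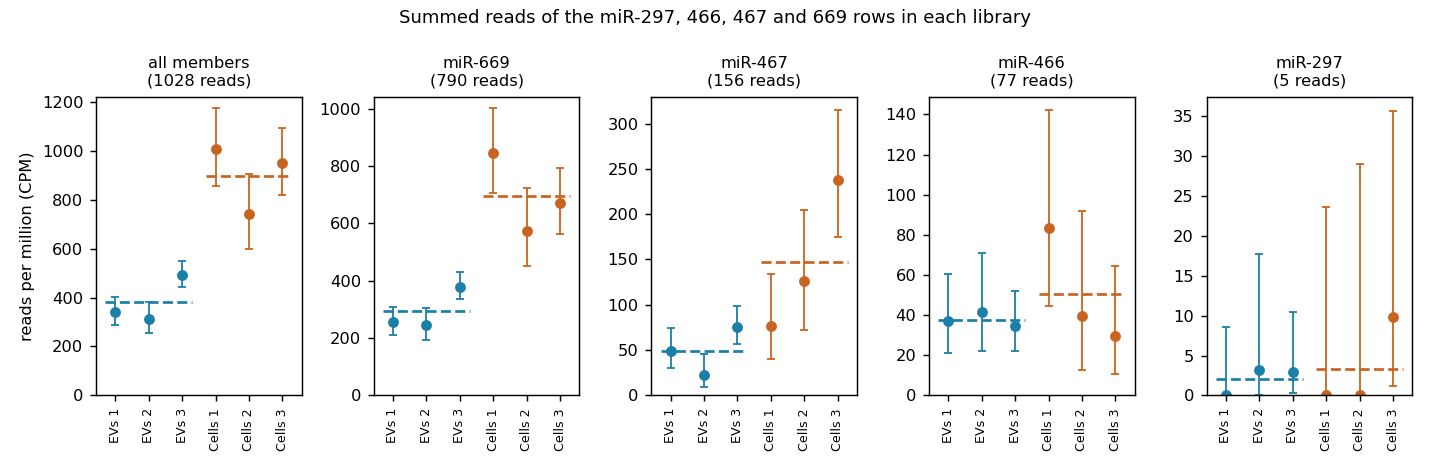
Summed CPM (vertical axes from 0, a scale for each panel) in the 3 EV libraries (blue) and 3 cell libraries (orange), for all 80 rows and for each number. Points are libraries with 95% exact binomial intervals of counting error, and dashed lines are group means. The EV points lie below the cell points for the full sum, miR-669 and miR-467, and overlap with them for miR-466 and miR-297.

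miR-669 carried most of the signal, with 790 of the 1028 reads (76.8%). Its 30 rows summed to 255, 245 and 380.0 CPM in EVs and 845, 575 and 672 CPM in Cells, without overlap. The means were 294 ± 75.0 and 697 ± 137 CPM (SD, n = 3 each), and the fitted log2 fold change was -1.74 (SE 0.27), or -1.24 with library size only. Of the 30 rows, 17 held reads and 13 were at 0 throughout.

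The leading row of the group was miR-669c-5p, from 1 hairpin gene inside Sfmbt2, with 508 reads or 49.4% of the group. It had 63, 46 and 171 reads in EVs and 96, 41 and 91 reads in Cells. Its level was 146 (interval 112 to 187), 147 (107 to 196) and 248 (212 to 288) CPM in EVs, and 615 (498 to 751), 323 (232 to 438) and 450 (362 to 552) CPM in Cells. Every EV library was lower than every cell library, and EVs replicate 3 was the highest of its group. In edgeR's quasi-likelihood test it fell by 1.85 (log2, SE 0.33, BH-adjusted p = 0.00144). By mean CPM it ranked 228th of all 1906 rows in EVs and 129th in Cells. Its 3p partner, miR-669c-3p, had no read in any library, for which a limit of 3 reads, used here in place of the exact interval, is at most 9.56 CPM in an EV library and 23.6 CPM in a cell library.

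The next row was miR-669a-5p, whose name covers 12 hairpin genes, all inside Sfmbt2. It had 23, 14 and 42 reads in EVs and 26, 22 and 18 in Cells. This was 53.4, 44.6 and 60.9 CPM in EVs and 166, 173 and 89.0 CPM in Cells, with means of 53.0 ± 8.16 and 143 ± 46.9 CPM (SD, n = 3 each). The groups did not overlap, although Cells replicate 3, at 89.0 CPM, lay closer to the highest EV library (60.9 CPM) than to the other cell libraries. In edgeR's test it fell by 1.87 (log2, SE 0.35, BH-adjusted p = 0.00208). Its 3p arm held 6 reads in EVs and 8 in Cells.

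miR-669d-5p, the third row of this number, had 4, 5 and 13 reads in EVs and 0, 1 and 2 reads in Cells. It was too sparse for the filter on low counts. Pooling the 3 libraries of each group, its share of reads was 2.48 times as high in EVs, with a 95% exact interval of 0.746 to 13.0 that includes equal shares. The following rows were chosen after their values were seen. miR-669m-5p had 8 reads in EVs and 1 in Cells, a ratio of 2.71 (0.363 to 120). miR-669b-5p and miR-669e-5p had 7 and 1 each, a ratio of 2.37 (0.304 to 107), and miR-669h-5p had 5 and 0. On the other side, miR-669o-5p had 1, 2 and 3 reads in EVs and 0, 2 and 11 in Cells, a ratio of 0.156 (0.0487 to 0.441), with most of its 13 cell reads in Cells replicate 3. The counting intervals of miR-669d-5p and miR-669o-5p did not overlap, but the CPM values of the groups did in both rows. Whether their changes differ was not tested.

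miR-467 held 156 reads, 15.2% of the group. Its 13 rows summed to 21, 7 and 52 reads in EVs and 12, 16 and 48 reads in Cells. The level was 48.7 (30.2 to 74.5), 22.3 (8.97 to 46.0) and 75.4 (56.3 to 98.9) CPM in EVs, and 76.8 (39.7 to 134), 126 (72.1 to 205) and 237 (175 to 314) CPM in Cells. The groups touched without overlapping, EVs replicate 3 and Cells replicate 1 being within counting error of each other. In each group replicate 3 was the highest library. The means were 48.8 ± 26.6 and 147 ± 82.2 CPM (SD, n = 3 each). The fitted log2 fold change was -2.01 (SE 0.46), or -1.54 with library size only. Of the 13 rows 9 held reads.

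miR-467e-5p, from 1 hairpin gene inside Sfmbt2, gave 71 of these reads. It had 9, 2 and 25 reads in EVs and 7, 6 and 22 in Cells, which is 21.2 ± 14.9 and 66.9 ± 36.2 CPM (SD, n = 3 each). The cell libraries lay between 44.8 and 109 CPM and the EV libraries between 6.37 and 36.3 CPM. In edgeR's test it fell by 2.04 (log2, SE 0.55, BH-adjusted p = 0.0108). The call ended without Cells replicate 3, where the log2 fold change was -1.51 (edgeR BH-adjusted p = 0.0810).

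miR-467a-5p, a name that covers 10 hairpin genes, had 2, 1 and 10 reads in EVs and 1, 4 and 6 in Cells, and the groups overlapped. Its pooled share in EVs was 0.400 times that in Cells (95% exact interval 0.165 to 0.986). The other arm, miR-467a-3p, chosen after its values were seen, had 2, 0 and 3 reads in EVs and 1, 4 and 7 in Cells, a pooled ratio of 0.141 (0.0389 to 0.430). miR-467d-5p had 4, 1 and 7 reads in EVs and 2, 1 and 6 in Cells, with overlap and a ratio of 0.451 (0.175 to 1.21). These ratios all lay below 1, but the intervals take no account of the spread between libraries.

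For miR-466 the groups overlapped. Its 31 rows, of which 17 held reads, summed to 16, 13 and 24 reads in EVs and 13, 5 and 6 reads in Cells, 77 in all. The level was 37.1, 41.4 and 34.8 CPM in EVs and 83.2, 39.4 and 29.7 CPM in Cells, and the highest value was that of Cells replicate 1. The means were 37.8 ± 3.36 and 50.8 ± 28.5 CPM (SD, n = 3 each). The fitted log2 fold change was -0.91 (SE 0.49), or -0.42 (SE 0.46) with library size only. Without Cells replicate 1 it was -0.26 (SE 0.46) after TMM scaling. By library totals, without TMM scaling, the pooled share in EVs was 0.747 times that in Cells (95% exact interval 0.453 to 1.27). Whether miR-466 differs from miR-669 or miR-467 in its change was not tested.

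Reads of miR-466 were spread over many rows. miR-466b-3p, a name with 8 hairpin genes, had 6, 2 and 3 reads in EVs and 4, 2 and 2 in Cells, and its groups overlapped (pooled ratio 0.465, interval 0.171 to 1.33). miR-466q, whose hairpin lies on chromosome 3 and not in Sfmbt2, had 3, 1 and 8 reads in EVs and 1 read in each cell library. Its ratio was 1.35 (0.365 to 7.48), so no difference was detectable. miR-466c-5p had 1, 2 and 4 reads in EVs and 2, 0 and 1 in Cells, a ratio of 0.790 (0.180 to 4.73).

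miR-297 was close to the limit of detection. Its 6 rows held 0, 1 and 2 reads in EVs and 0, 0 and 2 in Cells. miR-297a-3p had 2 reads in EVs and 1 in Cells, miR-297a-5p 1 read in Cells and miR-297c-3p 1 read in EVs. The pooled ratio of 0.508 had an interval of 0.0582 to 6.08, and the sum did not pass the filter.

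**Figure D2:**
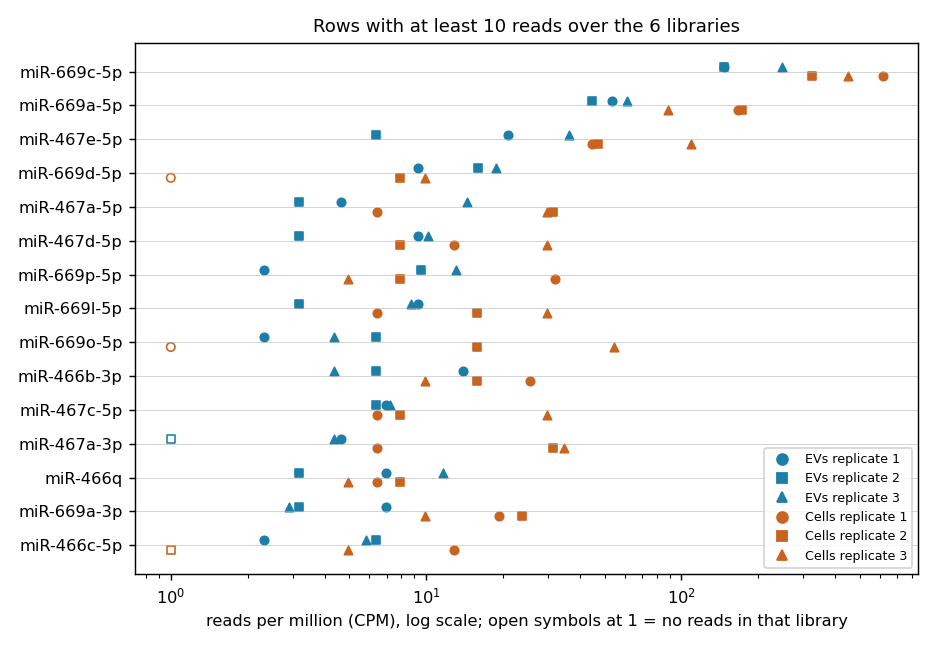
CPM (log axis) of the 15 rows with at least 10 reads, in the EV libraries (blue) and cell libraries (orange), with the replicate given by the symbol and open symbols at 1 for no reads. miR-669c-5p, miR-669a-5p and miR-467e-5p at the top have all EV points below all cell points, and most rows further down rest on few reads and overlap.

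Across the whole table, edgeR called 57.4% of 336 tested rows, 28.9% lower and 28.6% higher in EVs, that is 97 and 96 rows. With library size only the split was 60 lower and 148 higher, while the cluster's 3 tested rows were called lower under both scalings. Only 3 of the 80 rows of the cluster passed the filter on low counts, and all 3 were called lower and 0 higher, with a median log2 fold change of -1.87 against 0.06 over all tested rows. Since a row can pass the filter through the group in which it is high, this count is no support for a shared direction. The 3 rows also had CPM values without overlap, EVs below Cells, as had 20.2% of all tested rows. Of the 15 rows with at least 10 reads, 5 had EVs below Cells without overlap (miR-669a-3p and miR-467a-3p besides the 3), 0 had EVs above Cells and 10 overlapped. Of all tested rows 47.3% had EVs above Cells without overlap. Only 3 of the 15 rows passed the filter and the others are sparser, so these shares are not like for like. Without a filter on low counts, 46 rows with reads entered the fit, and 5 were called lower. This is about the same share as over all 1015 rows fitted (10.9%). The added calls were miR-467a-3p (log2 fold change -3.02, edgeR BH-adjusted p = 0.00141) and miR-669o-5p (-2.84, edgeR BH-adjusted p = 0.00164), the latter with overlapping groups. Of these 46 fitted values 26 were below 0 and 20 above.

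**Figure D3:**
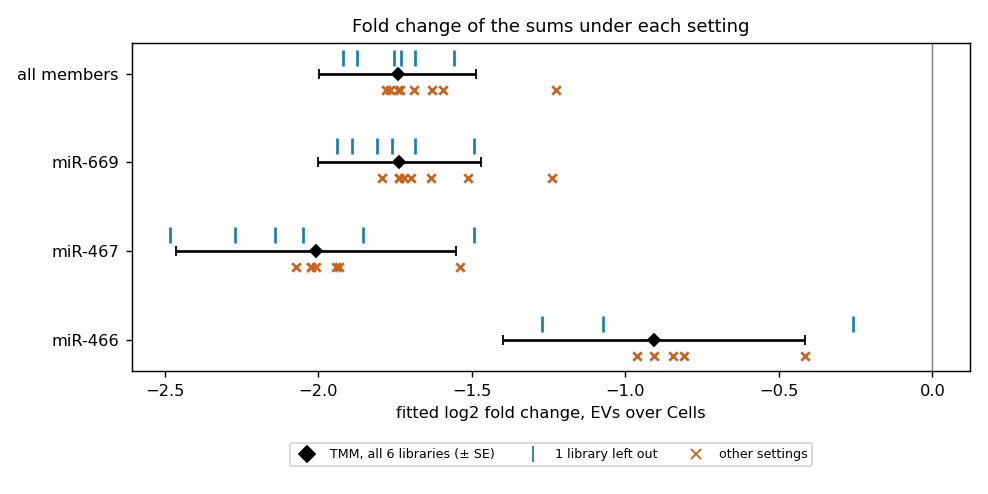
Fitted log2 fold change, EVs over Cells (horizontal axis), of the 4 sums that could be fitted: diamonds with bars are the value ± SE with TMM scaling and all libraries, blue ticks leave out 1 library each, and orange crosses are the other settings. All values lie below 0, with those of miR-466 reaching from -1.27 to -0.26 and those of miR-669 from -1.94 to -1.24.

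The ranges of each number's share of the cluster overlapped between the groups. miR-669 took 74.8% to 78.6% of the cluster's reads in EVs and 70.8% to 84.1% in Cells. miR-669c-5p alone took 46.7% ± 3.72 in EVs and 50.7% ± 9.23 in Cells, and miR-669a-5p 14.1% ± 1.65 and 16.4% ± 7.02 (SD, n = 3 each). miR-669c-5p, miR-669a-5p and miR-467e-5p together held 724 reads, 70.4% of the total. miR-467 took 7.14% to 15.3% in EVs and 7.64% to 25.0% in Cells. Measured against miR-669, it made up 8.33% (95% exact interval 4.38 to 14.1) of the miR-467 and miR-669 reads in Cells replicate 1 and 26.1% (19.9 to 33.1) in Cells replicate 3. The cell libraries thus differed from each other by more than counting error in this respect. miR-466 took 7.06% to 13.3% in EVs and 3.13% to 8.28% in Cells.

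**Figure D4:**
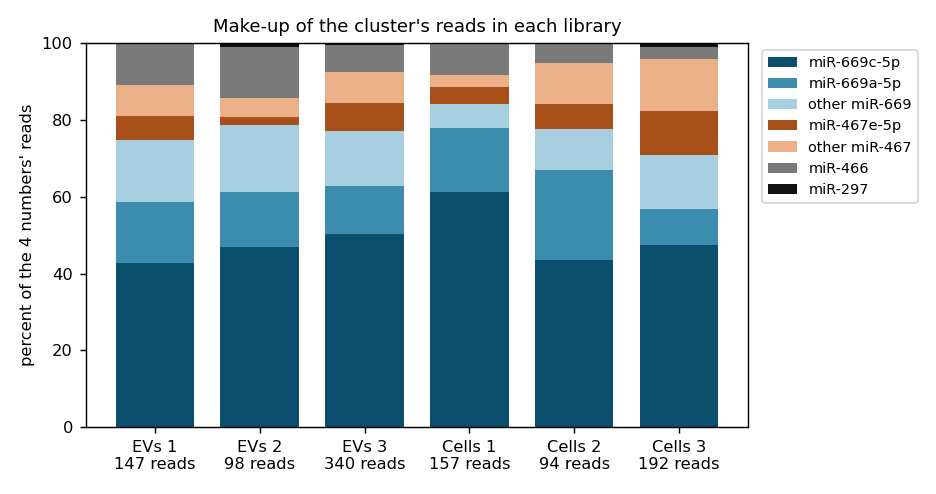
Share of each number and of the 3 leading rows among the cluster's reads (vertical axis, percent) in the 6 libraries, with the reads behind each bar under its name. miR-669c-5p is the largest segment in every library, between 42.9% and 61.1%, and the miR-467 segments together are largest in Cells replicate 3 at 25.0%.

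The numbers differed in the arm that gave reads. In miR-669 the 5p arm held 770 of 790 reads, and its share was 97.9% ± 0.732 in EVs and 96.7% ± 1.87 in Cells (SD, n = 3 each). In miR-467 it held 72 of 79 and 63 of 76 reads with an arm, or 92.6% ± 7.15 and 83.3% ± 8.33. Within miR-467 the 3p reads came mostly from miR-467a, with 24 reads of 5p and 17 of 3p, while miR-467e had 71 and 2. In miR-466 the 3p arm gave a larger share: 5p reads were 18 of 40 in EVs and 4 of 21 in Cells. Per library the 5p share of miR-466 was 38.5%, 50% and 46.7% in EVs and 25%, 0% and 20% in Cells, without overlap. The intervals of single libraries were wide, from 5.49% to 57.2% in Cells replicate 1 for example, and all those of Cells reached into the range of EVs. miR-466b had 1 read of 5p and 19 of 3p, and miR-466c 10 and 3, so the share of miR-466 also depends on its letters. Averaged over these 2, the only letters with at least 10 reads, the 5p share was 43.1% in EVs and 37.5% in Cells. That mean leaves out every other letter, and miR-466c in Cells rested on 3 reads of 5p and 1 of 3p. It therefore cannot tell whether the gap between the groups comes from the letters.

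**Figure D5:**
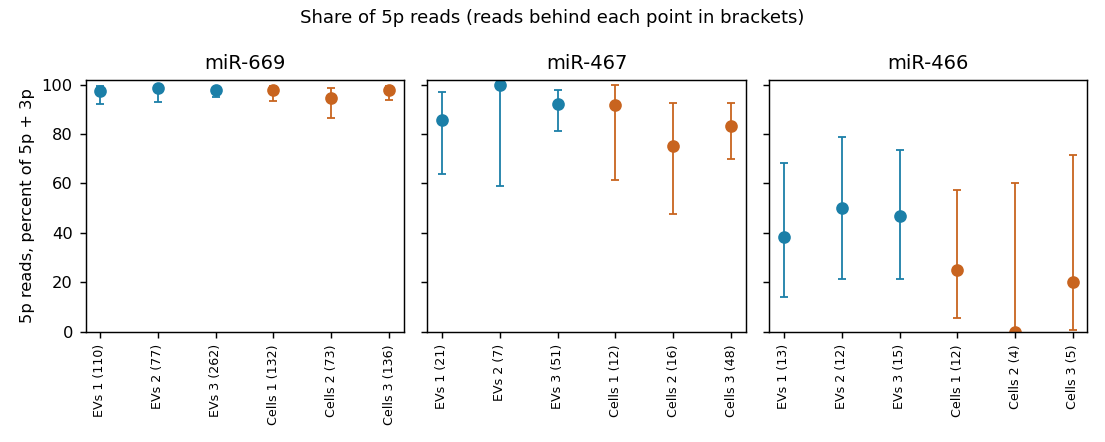
Share of 5p reads among 5p and 3p reads (vertical axis, percent) of miR-669, miR-467 and miR-466 in each EV library (blue) and cell library (orange), with 95% exact binomial intervals and the number of reads in brackets. miR-669 lies above 94% in all libraries, and miR-466 lies at or below 50% with wide intervals.

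How many rows of the cluster were seen depended on depth. Reads were found for 46 of the 80 rows, of which 13 had 1 read, 18 had 2 to 9 and 15 had 10 or more, and 11 had reads in every library. The 34 rows at 0 are 42.5% of the cluster, against 46.7% of all 1906 rows. Between 25 and 34 rows had reads in an EV library and between 17 and 24 in a cell library. At the depth of the shallowest library, 126910 reads, the expected number was 14.3 to 15.6 rows in EVs and 17.0 to 19.3 in Cells, so the order turned once depth was equal. For all miRNAs the expected numbers at that depth overlapped, 548 to 576 in EVs and 550 to 562 in Cells. The 15 rows with reads in EVs alone had at most 5 reads, and the 4 with reads in Cells alone had 1.

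Rows with a single hairpin gene under their letter, 61 of 80, gave 731 reads (71.1%), and rows whose letter covers several hairpin genes gave the other 28.9%. How reads that match several copies were counted is not given in the sources used here. A read of miR-467a, miR-466b or miR-669a could come from any of their copies, and near-identical rows may have exchanged or lost reads.

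Other imprinted miRNAs, from a list of 46 rows at the Gnas, Mest, Igf2 and H19 loci and the Dlk1-Dio3 locus, were called in both directions. Of 28 tested, 14 were called higher and 6 lower in EVs, with a median log2 fold change of 0.69, against 19 and 4 and a median of 1.17 with library size only. miR-434-3p of the Dlk1-Dio3 locus had a mean of 2789 ± 473 CPM in EVs against 1124 ± 130 in Cells (SD, n = 3 each, log2 fold change 0.85, SE 0.23, edgeR BH-adjusted p = 0.0114). miR-298-5p of the Gnas locus had 2203 ± 345 and 2360 ± 92.5 CPM (-0.57, SE 0.19, BH-adjusted p = 0.0260 in edgeR). Scaled by library size alone, edgeR gave it -0.10 (BH-adjusted p = 0.691), which is no call. Whether the cluster differs from these lists was not tested.

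The markers of the cultures were as follows. The 5 oligodendrocyte rows summed to between 33557 and 36111 CPM in EVs, against 33961 to 43435 in Cells, but they moved in opposite directions. In edgeR's test miR-138-5p and miR-219a-5p were called higher in EVs, and miR-219a-2-3p, miR-338-3p and miR-338-5p lower. With library size only, 2 were called higher and 2 lower. miR-138-5p lay between 9188 and 11339 CPM in EVs, against 3752 to 5312 in Cells, and miR-338-5p between 1128 and 1521 CPM, against 3696 to 4443. Of 5 rows of embryonic stem cells and trophoblast, in which the Sfmbt2 miRNAs are best known, 4 were at 0 in all libraries and miR-302a-3p had 1 read, in Cells replicate 3. Of rows of other cells, the groups overlapped for microglia alone. The summed levels in EVs and Cells were 89590 to 118690 and 35923 to 50823 CPM for neurons, and 201 to 462 and 449 to 1216 CPM for microglia. For liver they were 6040 to 11003 and 391 to 524 CPM, for red cells 3944 to 7835 and 212 to 256 CPM, and for endothelium 182 to 303 and 63.0 to 93.9 CPM. For the mesenchymal rows miR-143-3p, miR-145a-5p and miR-199a-3p they were 2473 to 4779 and 362 to 1037 CPM. The part of these cell types in the lower level of the cluster in EVs was not tested. In the bulk cell libraries fewer cells of a type and less RNA per cell cannot be told apart. The EV libraries are of a pellet and not of cells, so their marker levels count no cells.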

How the data were processed

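Each sample has its own deposited table of raw counts, with mature miRNAs as rows. The tools named in the submitters' processing notes are Bowtie 0.12.8, featureCounts 1.4.6-p4 (Subread), cutadapt 1.7.1 and bcl2fastq 1.8.4, with the build NCBIM37 (mm9). No source used here gives the rule for reads with several matches, the use of strand or of the 4 random adapter bases, or the miRNA release. One read was worth 1.45 to 3.19 CPM in an EV library, against 4.94 to 7.88 in a cell library. Within groups, the chi-square divided by its degrees of freedom was 7.73 to 37.5, and each library was counted as its own sample.

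Counts of all rows were fitted with edgeR 4.0.16 (R 4.3.3; filterByExpr at a minimum count of 10, TMM, glmQLFit and glmQLFTest, two-sided, group as the only term), adjusted by Benjamini-Hochberg (BH) over 336 rows and called below 0.05. The fit was tested on simulated data. For sums, the rows of a number were replaced by their sum in the same fit, and the standard error came from the fold change and F statistic. CPM used library totals. Alternatives were library size only, RLE factors, no filter, a replicate block, leaving out each library, thinning, DESeq2 1.42.0, merged identical sequences, and other sets of rows. Named rows were those tested, those called and the 3 with most reads of each number. The members and lists were chosen with earlier results of these data known.

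Deviations from the group means were correlated between libraries of the same number (correlations 0.115, 0.106 and 0.256 over 336 rows, against -0.148 to 0.0213 for other pairs). These correlations are low, and deviations within a group cancel out, which by itself lowers the other pairs. The numbers may therefore pair the libraries, but this rests on the check and not on the labels. The main fit has no term for a pairing, and the fit with the replicate number as a block has.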

Additional observations from a re-analysis of the deposited data

How the results depend on the processing

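miR-669c-5p and miR-669a-5p stayed called lower in EVs under all 13 alternatives, with log2 fold changes of -2.12 to -1.34 and -2.18 to -1.38. miR-467e-5p was not called without Cells replicate 3 (-1.51). It was not tested without any 1 of the EV libraries or after thinning, and it kept its call in the other 8 alternatives. Merging identical sequences is 1 of the alternatives for these 3 rows. It could not change their counts, since none of the 3 has a RefSeq sequence. The number of rows called lower was 5 of 46 without a filter, about the same share as the 111 of all 1015 rows (10.9%). With 1 library left out it was 2 to 3 of the 2 to 3 tested, against 88 to 98 of 328 to 383 rows over the whole table. No row of the cluster was called higher by edgeR or DESeq2 in any alternative, and without a filter and without adjustment 0 rows of the cluster had a p below 0.05 and a higher level in EVs. With library size only, the log2 fold changes were -1.24 for the sum of miR-669 and -1.23 for the full sum. With 1 library left out, the sum of miR-466 ranged from -1.27 to -0.26, and that of miR-467 from -2.48 to -1.49. The sum of miR-466 fell under the filter without any 1 of the EV libraries, after thinning, without its largest row and with rows inside Sfmbt2 alone, and that of miR-467 after thinning. As a mean over letters with at least 10 reads, the 5p share of miR-466 was 37.5% in Cells against 43.1% in EVs. For miR-466 these letters are miR-466b and miR-466c alone. The share was 96.4% for miR-669 in EVs. With the replicate number as a block, the sums had log2 fold changes of -1.73 (all), -1.72 (miR-669), -2.02 (miR-467) and -0.84 (miR-466), and the 3 tested rows of the cluster kept their calls. Counting identical sequences once could not change the sums, since 8 of the 80 rows, with 16 of the 1028 reads, have a RefSeq sequence to compare and the rows with most reads have none, so it says nothing of their stability. Depth limits the sparse rows: 3 reads are 14.8 to 23.6 CPM in a cell library.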

Other observations

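Outside the 4 numbers, 9 rows have UGUGUGU or ACACACA in their RefSeq mature sequence, and 4 of them were at 0 in all libraries, as were 755 of the 1622 rows with a RefSeq sequence (46.5%). Among the 8 rows of the cluster with a RefSeq sequence, 7 had such a motif, and 6 of these 7 were at 0. The other 72 rows of the cluster, with those of most reads among them, had no sequence to search. Among the 9, miR-574-5p (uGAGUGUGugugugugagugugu) and miR-1187 (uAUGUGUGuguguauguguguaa), with the seed in capitals and from RefSeq (GRCm38.p6), had no reads. Another, miR-294-3p, is also in the list of embryonic stem cell markers. The 3p partner of miR-574-5p, miR-574-3p, chosen after its values were seen, had 2, 2 and 4 reads in EVs and 1, 1 and 2 in Cells. Of the 9, 3 were tested, 1 was called higher and 1 lower. miR-672-5p, the most abundant, had 509.9 ± 188 CPM in EVs against 455 ± 46.5 in Cells (SD, n = 3 each, log2 fold change -0.32, SE 0.27, edgeR BH-adjusted p = 0.358), and its sign turned with library size only (0.17). The log2 fold change of miR-32-3p was -1.49 (SE 0.46, BH-adjusted p = 0.0193 in edgeR), and scaled by library size alone it was not called (BH-adjusted p = 0.0847 in edgeR). That of miR-672-3p was 1.66 (SE 0.65, BH-adjusted p = 0.0493 in edgeR), and with RLE factors it was not called (BH-adjusted p = 0.0554 in edgeR).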
